A study of Mus musculus with 26 samples.

Results

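The genes described are 10 forkhead transcription factors of mesenchyme, Foxf1, Foxf2, Foxl1, Foxl2, Foxc1, Foxc2, Foxd1, Foxp1, Foxp2 and Foxo1. They were taken by symbol from the 41442 gene rows of each of the RNA-seq count tables, and all 10 had a row in both. The series measured RNA, and accessible chromatin by ATAC-seq, in fluorescent mesenchymal cells sorted from the fetal mouse reproductive tract. In the fetal table, 4 groups of 3 libraries held Gli1+ cells of the mesonephros, the tissue that carries the Wolffian and Müllerian ducts, from female and from male embryos at E14.5 and at E16.5 (days of embryonic development). In the uterine table, 2 groups of 3 libraries held Amhr2+ and Gli1+ cells of the female neonatal uterus, with the age given as E19.5. Gli1+ cells carried Gli1-CreER, a recombinase that needs tamoxifen and is driven by a hedgehog target gene, and Amhr2+ cells carried Amhr2-Cre, driven by the gene of the anti-Müllerian hormone receptor. Both lines carried the Rosa-Tomato reporter, and tamoxifen at 1 mg per dam was given at E12.5 and E13.5 to the dams of either line. A Gli1+ cell is therefore one in which, or in whose ancestor, the driver was on around the tamoxifen doses. For an Amhr2+ cell the driver could have been on at any time before collection. Neither is known to express its driver at collection. The 2 uterine groups were thus labelled over different times, and the part of this in their differences was not tested. The labels do not say whether replicates came from separate litters or from pooled embryos, so p-values measure the spread between these libraries, which may be technical. Each table was analysed by itself, because a non-stranded kit was used for the mesonephros and a stranded one for the uterus.

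Forkhead factors bind DNA through a winged-helix domain, and many of them mark particular kinds of mesenchyme. FOXF1, FOXF2 and FOXL1 lie downstream of hedgehog signals in gut and lung mesenchyme. FOXL2 keeps ovarian granulosa cells from taking a testicular fate and is also found in pituitary, eyelid and uterine mesenchyme. FOXC1 and FOXC2 pattern mesoderm, vessels and the urogenital tract, FOXD1 marks the stroma of the fetal kidney, and FOXP1 and FOXP2 are mainly repressors that act in lung, heart and brain. FOXO1 is held out of the nucleus when growth factor signals activate the kinase AKT, and it is a known regulator of uterine stroma.

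All coordinates are on mm10. Foxf1 (chromosome 8, 121084386 to 121088144), Foxc2 (121116171 to 121118895) and Foxl1 (121127940 to 121130644) form a cluster with gaps of 28026 and 9044 bp, and the long non-coding gene Fendrr (121058803 to 121060413) lies beside Foxf1 on the other strand. Foxf2 (chromosome 13, 31625816 to 31631403) and Foxc1 (31806633 to 31812476) lie 175229 bp apart. Foxd1 is on the same chromosome at 98354242 to 98359305. Foxl2 (chromosome 9, 98955288 to 98958543) shares 12 bp with its antisense neighbour Foxl2os. Foxo1 is at chromosome 3, 52268336 to 52353221, Foxp1 at chromosome 6, 98925338 to 99520997, and Foxp2 at chromosome 6, 14901349 to 15441977. Foxc1 and Foxd1 overlap no other gene of the tables, while each of the other members overlaps a small, clone-named or antisense gene, so some of their reads could be assigned to either. Foxf1, Foxc2 and Foxl1 lie wholly inside the same clone-named gene, AC114005.5, as do Fendrr and Mthfsd. How reads in this shared stretch were counted is not known.

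The deposited ATAC-seq list is a single set of 71040 peaks for all 8 ATAC-seq samples, with no column for sample or height, so it describes where chromatin was open and not how that differed between groups. A peak lay within 1 kb of an annotated start of 9 of the 10 members, against 89.1% of the 14577 tested fetal genes with an annotated symbol, so the members' share is near the background. The exception was Foxl1, whose nearest peak was 2092 bp from its start. The nearest peak to Foxf1 was 390 bp away, and a peak covered the start of each of the other 8. Foxp1, the longest of the 10 genes, held 32 peaks in its 595660 bp span, Foxp2 held 8 and Foxo1 held 6. Within 50 kb on each side of the start there were between 2 peaks (Foxp2) and 11 (Foxp1).

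**Figure D1:**
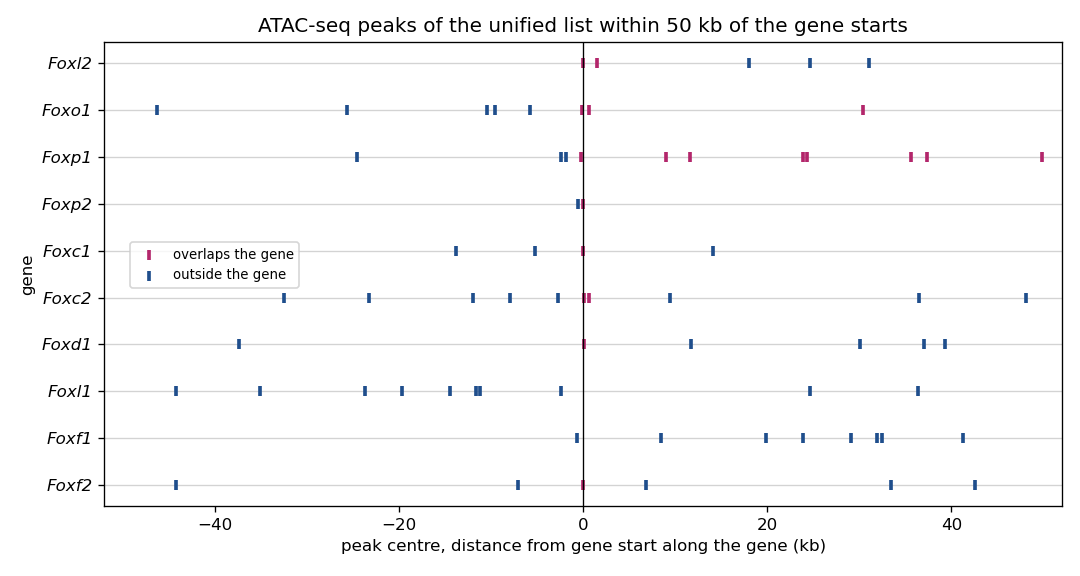
Each tick is the centre of a peak of the unified ATAC-seq list, placed by its distance in kb from the gene start along the gene's strand, for the 10 genes in rows. A tick at or near 0 is present in every row but that of Foxl1, whose nearest peak is 2092 bp away, and Foxp2 has 2 peaks in the window against 11 for Foxp1.

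The open sequence just before the start is shown for 4 members on which the results below turn: Foxl2, the highest per length, Foxo1, whose sex difference changed with age, Foxc1, with the largest sex difference at E16.5 among members above 1 CPM, and Foxd1, which fell most with age. Sequence for Foxl2 is the part of its peak before the gene start on the plus strand, chr9:98955038-98955287. The others are the bases of the RefSeq promoter entries (GRCm38.p6) that precede the gene start, all on the plus strand: chr3:52268087-52268335 for Foxo1, chr13:31806396-31806632 for Foxc1 and chr13:98353995-98354241 for Foxd1. Capitals mark CCAAT, the binding motif of nuclear factor Y, or its reverse complement ATTGG.
Foxl2: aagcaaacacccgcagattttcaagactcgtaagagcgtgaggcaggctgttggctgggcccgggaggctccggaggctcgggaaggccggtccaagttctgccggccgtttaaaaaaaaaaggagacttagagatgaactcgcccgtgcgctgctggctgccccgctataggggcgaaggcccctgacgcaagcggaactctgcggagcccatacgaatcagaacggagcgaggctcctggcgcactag
Foxo1: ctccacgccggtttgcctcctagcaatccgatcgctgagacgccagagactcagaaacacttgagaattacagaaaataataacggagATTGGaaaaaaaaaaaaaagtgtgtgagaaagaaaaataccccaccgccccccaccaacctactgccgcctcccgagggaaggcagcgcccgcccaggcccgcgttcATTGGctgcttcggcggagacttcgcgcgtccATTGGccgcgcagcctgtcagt
Foxc1: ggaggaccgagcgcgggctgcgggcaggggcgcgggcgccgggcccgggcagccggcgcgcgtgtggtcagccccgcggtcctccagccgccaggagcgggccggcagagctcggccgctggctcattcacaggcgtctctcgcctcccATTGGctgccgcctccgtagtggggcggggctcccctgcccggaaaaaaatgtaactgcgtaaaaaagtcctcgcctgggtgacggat
Foxd1: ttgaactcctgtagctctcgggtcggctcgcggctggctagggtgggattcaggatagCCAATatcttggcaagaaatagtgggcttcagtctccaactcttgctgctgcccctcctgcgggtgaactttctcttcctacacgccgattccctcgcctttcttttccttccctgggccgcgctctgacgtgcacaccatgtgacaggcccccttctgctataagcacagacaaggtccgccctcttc
The printed sequences of Foxl2, Foxo1 and Foxc1 lay wholly inside a peak, and 88 of the 247 bases of Foxd1 did. RefSeq promoter entries of 300 bases were matched for 6 of the 10 members, 8 entries in all; Foxf1, Foxl1, Foxc2 and Foxp2 had none. On both strands, TGTTTAC, a forkhead core motif, was found in none of these 8 entries and in 3.65% of 32851 promoters of that length, and TGGGTGGTC, a GLI motif, in none of them and in 0.253%. CCAAT was found in 4 of the 8, those of Foxo1, Foxc1 and Foxd1 and 1 of the 3 of Foxp1, and in 37.4% of the 32851. No match overlapped a match of another motif.

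Library totals were 23382983 to 64602477 counts in the fetal table and 28709191 to 37541045 in the uterine table. Levels are in CPM, counts scaled to a library of 1e+06 after TMM scaling, and 3 counts, taken as the floor, equal 0.0485 to 0.126 CPM for the mesonephros and 0.0777 to 0.102 CPM for the uterus. All 8 mesenchyme markers, Col1a1 and Pdgfra among them, exceeded 1 CPM in every library. Their sum ranged from 35552 to 43004 CPM in E14.5 libraries and from 48181 to 67225 in E16.5 libraries, and it was 27074 to 28917 in uterine Amhr2+ and 56154 to 63361 in uterine Gli1+ libraries. The 5 smooth muscle markers summed to 173 to 192 CPM in E14.5 females, 478 to 743 in E14.5 males, 261 to 365 in E16.5 females and 1512 to 2702 in E16.5 males, and to 941 to 1579 in uterine Amhr2+ and 1936 to 2137 in uterine Gli1+ libraries. The 8 epithelial markers summed to 23.1 to 53.2 CPM in the mesonephros, 71.5 to 73.7 in uterine Amhr2+ and 31.2 to 43.3 in uterine Gli1+ libraries. The 6 endothelial markers summed to 103 to 126 CPM at E14.5, 64.9 to 78.3 in E16.5 females, 82.1 to 91.8 in E16.5 males, 24.0 to 29.8 in uterine Amhr2+ and 37.2 to 45.2 in uterine Gli1+ libraries. Blood and immune markers summed to at most 84.4 CPM. These sums thus differed in comparisons in which members differed, and their part in the results was not tested. Erythroid markers reached 849.5 CPM in E14.5 female replicate 3 and at most 10.5 CPM in every other library. In sorted bulk libraries, fewer cells of a type and less RNA per cell cannot be told apart.

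Per kb of exon, the scale on which genes can be compared, Foxl2, Foxo1 and Foxp1 held the top 3 places in all 6 groups. Foxl2 was first in each, from 6.08 ± 0.149 CPM per kb (SD, n = 3) in E14.5 females, where its libraries overlapped those of Foxo1 (6.04 ± 0.315), to 16.04 ± 0.473 in E16.5 males. In the uterus it reached 30.5 ± 8.25 in Amhr2+ cells and 19.1 ± 0.667 in Gli1+ cells. Foxp1 stood above Foxo1 in E16.5 females (7.01 ± 0.537 against 4.46 ± 0.386) and below it in the other 5 groups. Foxc1, Foxc2 and Foxp2 followed in the 4 fetal groups at 0.925 to 2.79 CPM per kb, and neighbours among them overlapped in most groups. Foxd1, Foxl1, Foxf1 and Foxf2 took the last 4 places in every fetal group, at most 0.800 CPM per kb. In the uterus, Foxp2 and Foxc1 were at 0.389 to 0.625 in both groups. Foxf1 and Foxc2 were at 0.518 ± 0.356 and 0.412 ± 0.167 CPM per kb in Gli1+ cells, overlapping Foxp2 and Foxc1, and at 0.0110 ± 0.0112 and 0.0229 ± 0.0319 in Amhr2+ cells.

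**Figure D2:**
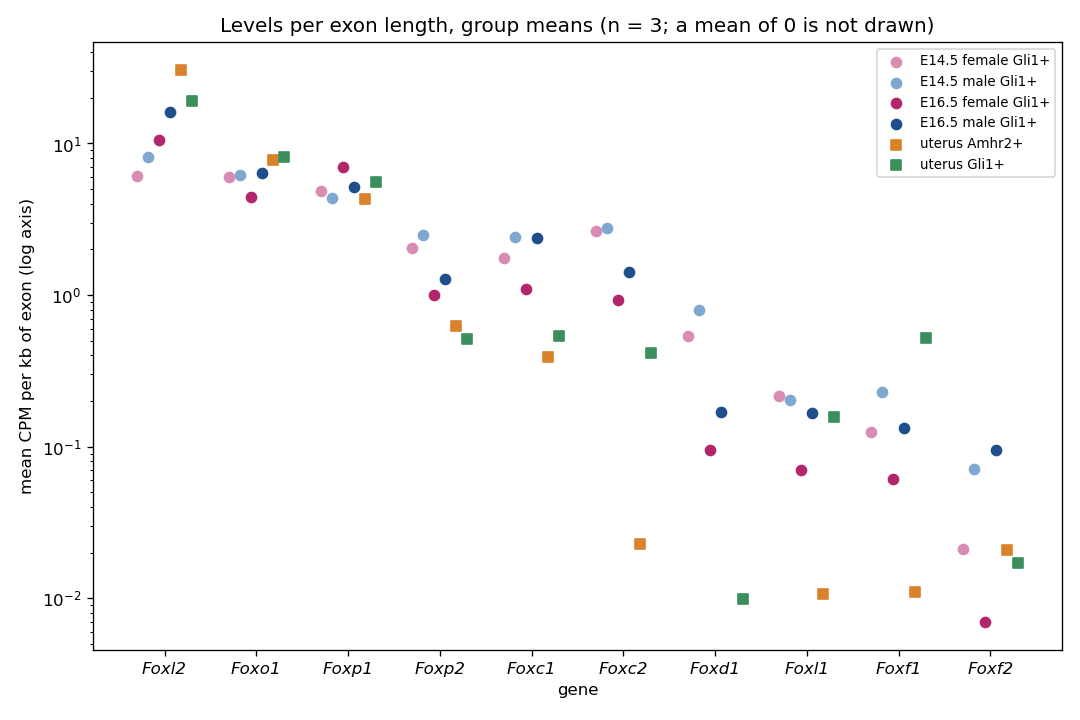
Group means (n = 3) of CPM per kb of exon, on a log axis, for the 10 genes; circles are the 4 fetal groups and squares the 2 uterine groups, and a mean of 0 (Foxd1 in uterine Amhr2+ cells) is not drawn. Foxl2, Foxo1 and Foxp1 lie highest in every group, between 4.30 and 30.5 CPM per kb.

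A filter on low counts kept 9 members in the fetal table, all but Foxf2, and 6 in the uterine table, leaving out Foxf1, Foxf2, Foxl1 and Foxd1. Differences were tested with edgeR's quasi-likelihood test over all kept genes, and a gene was called at a Benjamini-Hochberg adjusted p under 0.05. Between the sexes, 1 of 9 tested members was called at E14.5, where 6.28% of all tested genes were, and 6 of 9 at E16.5, where 27.3% were. With age, 8 of 9 were called in females against 39.6% of all genes, and 4 of 9 in males against 23.3%. The test of whether the sex difference changed with age called 1 of 9, against 10%. Between uterine Amhr2+ and Gli1+ cells 3 of 6 were called, against 23.9%. The comparisons between sexes and between ages share libraries, so their counts are not independent. At E16.5, 5 of the 6 called were lower in females and 1 was higher, where 14.1% and 13.2% of all genes were, and the median log2 difference of the 9 was -0.61 against 0.0063 for all genes. In females 6 of the 8 called fell with age and 2 rose, against 18.6% and 21% of all genes, with a median of -0.96 against 0.0046. The corresponding medians were -0.30 and -0.014 between sexes at E14.5, -0.23 and -0.012 with age in males, and -0.21 and -0.0017 in the uterus. The groups compared did not overlap for 4 of 9 tested members between sexes at E14.5 and 7 of 9 at E16.5, where 27.2% and 38.3% of all genes did not. The same held for 8 of 9 with age in females (56.6% of all genes), 5 of 9 in males (34.8%) and 4 of 6 in the uterus (44.4%).

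**Figure D3:**
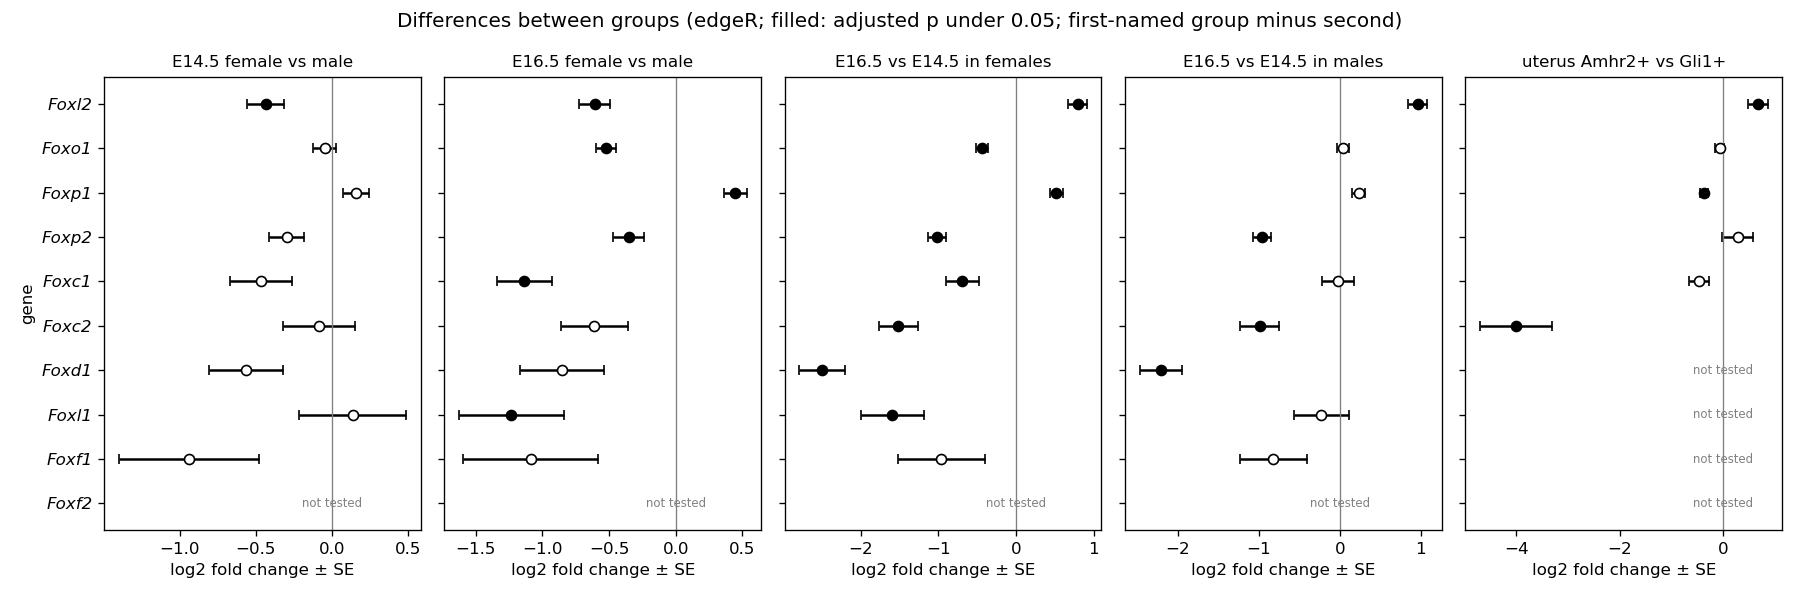
Log2 fold change with its SE (first-named group minus second, n = 3 libraries each) for the 10 genes in the 5 pairwise comparisons; filled circles passed an adjusted p of 0.05 by edgeR. In E16.5 females 5 filled circles lie below 0 and that of Foxp1 lies above, and Foxc2 in the uterus lies farthest from 0, at -4.01.

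Foxl2 was higher in males than in females at both ages, rose with age in both sexes, and was higher in Amhr2+ than in Gli1+ cells of the uterus. Values at E14.5 were 19.3, 19.8 and 20.3 CPM for females and 20.8, 32.0 and 27.2 for males. At E16.5, female libraries gave 36.5, 36.1 and 30.2 CPM and male ones 51.9, 53.9 and 50.9. The sexes did not overlap at either age, and at E14.5 the lowest male library came within 1 CPM of the highest female one. The log2 fold change of females against males was -0.61 (SE 0.115, adjusted p 0.00101) at E16.5 and -0.44 (SE 0.120, adjusted p 0.0429) at E14.5. The E14.5 call was lost without female replicate 1, 2 or 3 (adjusted p 0.15, 0.132 and 0.114) and without male replicate 2 or 3 (0.218 and 0.145). It was also lost when just the 6 libraries compared were fitted (0.0622). With age, Foxl2 rose by 0.79 (SE 0.120, adjusted p 0.00011) in females and 0.96 (SE 0.116, adjusted p 1.91e-05) in males on the log2 scale. The difference between these rises, the sex by age interaction, was -0.17 (SE 0.166, adjusted p 0.592).

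In the uterus Foxl2 measured 112, 118 and 68.6 CPM in Amhr2+ libraries and 62.9, 63.9 and 59.8 in Gli1+ libraries. All Amhr2+ libraries lay above the Gli1+ ones, replicate 3 only just. The log2 fold change was 0.68 (SE 0.188, adjusted p 0.0392). With a library left out the log2 fold change was 0.54 to 0.89, but the call depended on the libraries fitted. Without Amhr2+ replicate 1 or 2 the adjusted p was 0.118 and 0.0934. Without Gli1+ replicate 1, 2 or 3 it was 0.0991, 0.1 and 0.0831, and without Amhr2+ replicate 3 it was 1e-04. The fit with no low-count filter gave 0.15. Amhr2+ replicate 3 also had the highest sum of blood and immune markers in its group, 84.4 CPM against 51.0 and 43.8, whose part in the result was not tested. Marker genes of other kinds also differed between the uterine groups: 6 of 8 mesenchyme markers were called lower in Amhr2+ cells (Col1a1 log2 fold change -0.98, adjusted p 3.06e-05), as were 3 of 6 endothelial ones. By contrast 4 of 7 tested epithelial markers were called higher (Krt18 log2 fold change 1.21, adjusted p 0.000658). Their part in this and the other uterine results was not tested.

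Foxl2os, the antisense gene at the Foxl2 start, was measured at 222, 257 and 149 CPM in Amhr2+ and 105, 114 and 113 CPM in Gli1+ libraries, with replicate 3 again lowest. Its log2 fold change was 0.92 (adjusted p 0.012) in the uterus, -0.52 (adjusted p 0.000178) between the sexes at E16.5, and 0.58 and 0.83 with age in females and males (adjusted p 5.57e-05 and 1.99e-06). The sign was that of Foxl2 in all 4. FOXL2 is best known in ovarian cells, and markers of gonadal cells were therefore examined. Cyp19a1, the aromatase gene of granulosa cells, had 0 counts in all 18 libraries, and Nr5a1, which marks gonadal somatic cells, had group means of at most 0.495 CPM. The 8 gonad somatic markers summed to 13.7 to 28.9 CPM in the mesonephros and 3.28 to 6.42 in the uterus, with the highest fetal sums at E14.5 (27.0 to 28.9), and the part of such cells in the Foxl2 levels was not tested. Of 12 genes linked to FOXL2 in the ovary, 10 were tested in the fetal table: 2 were higher and 4 lower in E16.5 females, against 27.3% of all genes called, and 1 and 3 at E14.5, against 6.28%. With age 2 rose and 5 fell in females (39.6% of all genes called), and 1 rose and 2 fell in males (23.3%). In the uterus the 1 call among 7 tested was Bmp2, which was higher in Amhr2+ cells (31.3 ± 1.64 against 15.6 ± 0.254 CPM). Bmp2 was lower in females at both fetal ages, and Wnt4 was higher in females at both, with log2 differences of 0.47 and 0.89.

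**Figure D4:**
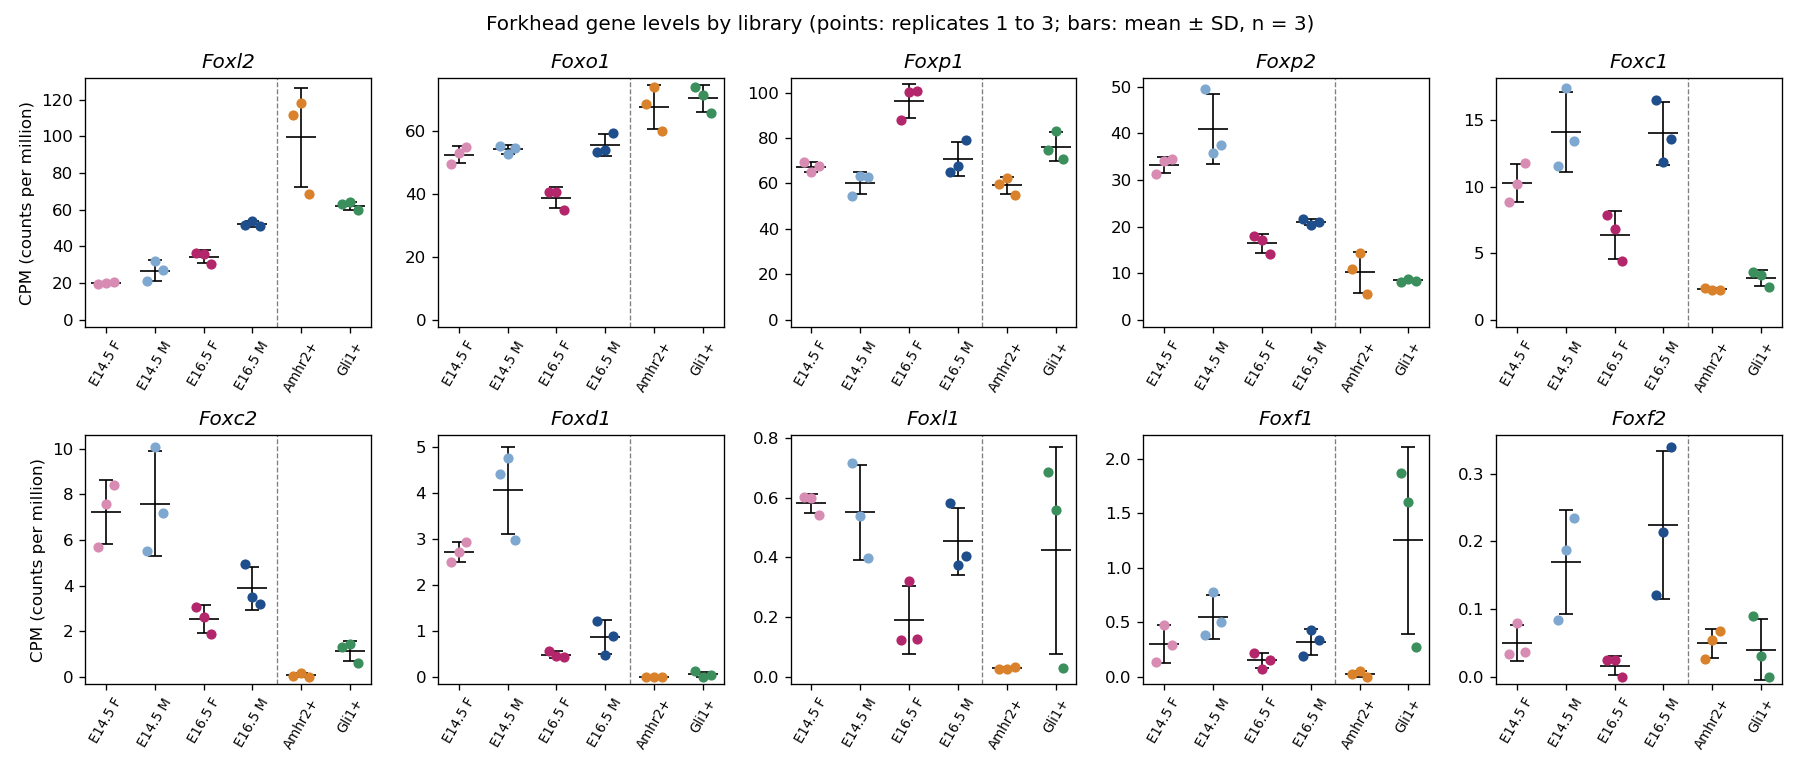
CPM of each of the 10 genes in the 18 RNA-seq libraries; points are replicates 1 to 3 from left to right, bars are mean ± SD (n = 3), and the dashed line parts the fetal from the uterine table. Foxl2 steps up from 19.8 CPM in E14.5 females to 52.2 in E16.5 males, Foxo1 is low in E16.5 females only among the fetal groups, and Foxp1 is high there.

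Foxo1 was the 1 tested member called for a sex difference that changed with age. It measured 49.4, 52.8 and 54.8 CPM in the E14.5 female libraries and 55.1, 52.5 and 54.5 in the E14.5 male ones, which overlapped. Values at E16.5 were 40.5, 40.6 and 34.8 CPM for females and 53.1, 53.9 and 59.3 for males, and every female library was below every library of the other 3 fetal groups. The log2 fold change between sexes was -0.52 at E16.5 (SE 0.0747, adjusted p 7.61e-05) and -0.05 at E14.5 (SE 0.0749, adjusted p 0.805), and the interaction was -0.47 (SE 0.106, adjusted p 0.00805). The interaction stayed under 0.05 without any single library (adjusted p 0.0047 to 0.0297). Foxl1 and Foxc1 had larger interaction estimates with larger SE, -1.37 (SE 0.532) and -0.67 (SE 0.290), and were not called in the reported fit. In females Foxo1 fell by 0.44 with age (SE 0.0753, adjusted p 0.000318), and in males the value was 0.04 (SE 0.0743, adjusted p 0.762). In the uterus it stood at 68.4, 73.95 and 59.999 CPM in Amhr2+ and 74.0, 71.4 and 65.6 in Gli1+ libraries, which overlapped. The difference was -0.06 on the log2 scale (SE 0.0874, adjusted p 0.658).

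FOXO proteins switch on genes of stress resistance, cell cycle arrest and protein breakdown. Of 18 FOXO target genes, all tested, 5 were higher and 1 lower in E16.5 females than males (27.3% of all genes called), with a median log2 difference of 0.05 against 0.0063 for all genes. Sesn3, which restrains mTOR signalling, stood at 385 ± 12.46 CPM in these females against 201 ± 29.8 in males (log2 fold change 0.94, adjusted p 1.55e-06). Bcl2l11, a pro-apoptotic gene, measured 59.3 ± 4.78 against 37.8 ± 3.98 (0.65, adjusted p 4.56e-05). Fbxo32, a ubiquitin ligase gene of muscle wasting, went the other way, 54.7 ± 5.14 against 203 ± 13.8 CPM (-1.89, adjusted p 2.29e-10), and was the 1 target called at E14.5 (-1.12, adjusted p 9.31e-07). Whether the targets moved with Foxo1 was not tested. With age, 10 targets rose and 3 fell in females, where 39.6% of all genes were called, and 6 rose and 1 fell in males, where 23.3% were. Txnip, a thioredoxin inhibitor gene, rose in both sexes, by 1.29 and 0.87 on the log2 scale. In the uterus 1 was higher and 2 were lower in Amhr2+ cells, against 23.9% of all genes called. FOXO activity depends on the place of the protein in the cell, which RNA does not measure.

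At E16.5 Foxp1 was higher and Foxp2 lower in females than in males, and in females Foxp1 rose and Foxp2 fell with age. Foxp1 measured 69.2, 64.9 and 67.8 CPM in the E14.5 female libraries and 54.5, 63.1 and 62.9 in the E14.5 male ones. At E16.5, female libraries gave 87.9, 100 and 101 CPM and male ones 65.0, 67.8 and 79.3. Females were above males without overlap at both ages. The log2 difference was 0.45 at E16.5 (SE 0.0845, adjusted p 0.000927) and 0.16 at E14.5 (SE 0.0854, adjusted p 0.343). Foxp1 was the 1 tested member called higher in females. It rose with age in females by 0.52 (SE 0.0851, adjusted p 0.000211). In males the value was 0.23 (SE 0.0849, adjusted p 0.0628), and it passed without E16.5 male replicate 1 (adjusted p 0.0273) and under DESeq2 (0.0451) and no low-count filter (0.0275).

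Foxp2 measured 31.3, 34.0 and 34.4 CPM in the E14.5 female libraries and 49.6, 35.8 and 37.5 in the E14.5 male ones. Values at E16.5 were 18.1, 17.1 and 14.04 CPM for females and 21.5, 20.3 and 21.0 for males. Its level was thus lower at E16.5 in each sex, and the ages did not overlap. It fell by 1.02 in females (SE 0.117, adjusted p 6.37e-06) and by 0.96 in males (SE 0.114, adjusted p 1.33e-05) on the log2 scale. Females were lower than males by 0.35 at E16.5 (log2 fold change -0.35, SE 0.116, adjusted p 0.0335). That call was lost without E16.5 female replicate 2 or 3 (adjusted p 0.0537 and 0.139) or male replicate 1, 2 or 3 (0.0645, 0.0555 and 0.0704). At E14.5 the value was -0.30 (SE 0.113, adjusted p 0.157).

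In the uterus Foxp1 was lower in Amhr2+ cells, at 59.9, 62.6 and 54.9 CPM against 74.7, 83.3 and 70.8 in Gli1+ cells. The groups did not overlap, and the log2 fold change was -0.37 (SE 0.0809, adjusted p 0.0134; 0.0521 without Amhr2+ replicate 1). Foxp2 measured 10.9, 14.3 and 5.52 CPM in Amhr2+ and 8.16, 8.69 and 8.41 in Gli1+ libraries. Its Amhr2+ libraries lay on both sides of the Gli1+ ones, replicate 3 below them and the others above. The difference was 0.29 (SE 0.298, adjusted p 0.524), and without Amhr2+ replicate 3 it was 0.58 (adjusted p 0.0301). Foxp4, a close relative of both, was lower in E16.5 females (53.1 ± 3.45 against 76.0 ± 8.36 CPM), fell with age in both sexes, and was lower in uterine Amhr2+ cells (38.6 ± 1.27 against 50.1 ± 4.796 CPM).

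Foxc1 and Foxc2 were lower in E16.5 than in E14.5 females. Foxc1 measured 8.88, 10.2 and 11.8 CPM in the E14.5 female libraries and 11.5, 17.4 and 13.5 in the E14.5 male ones. At E16.5, female libraries gave 7.86, 6.84 and 4.39 CPM and male ones 16.6, 11.9 and 13.6. Every E16.5 female library was below all other fetal libraries. The log2 fold change between sexes at E16.5 was -1.14 (SE 0.206, adjusted p 0.00102), and it held without any single library (adjusted p 0.000711 to 0.00411). At E14.5 it was -0.46 (SE 0.205, adjusted p 0.24). In males the age difference was -0.02 (SE 0.198, adjusted p 0.961). In females it was -0.69 (SE 0.212, adjusted p 0.0202), a call lost without replicate 3 of the E14.5 females (0.0778), the library with high erythroid markers, or of the E16.5 females (0.056), and without the low-count filter (0.0722). The interaction was -0.67 (SE 0.290, adjusted p 0.178), and with same-numbered replicates as blocks it was -0.71 (SE 0.208, adjusted p 0.0395).

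Foxc2 measured 5.68, 7.60 and 8.43 CPM in the E14.5 female libraries and 5.51, 10.1 and 7.19 in the E14.5 male ones, which overlapped. Values at E16.5 were 3.06, 2.63 and 1.87 CPM for females and 4.94, 3.497 and 3.18 for males, all below every E14.5 library. It fell with age by 1.52 in females (SE 0.252, adjusted p 0.000308) and by 0.99 in males (SE 0.238, adjusted p 0.00751) on the log2 scale. The sexes did not overlap at E16.5, but the log2 difference of -0.61 (SE 0.253) had an adjusted p of 0.0902. With same-numbered replicates as blocks it was -0.62 (SE 0.153) with an adjusted p of 0.00638.

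Foxd1, the renal stroma factor, had the largest age difference of the 9 tested members. It measured 2.504, 2.71 and 2.93 CPM in the E14.5 female libraries and 4.42, 4.76 and 2.98 in the E14.5 male ones. At E16.5, female libraries gave 0.563, 0.443 and 0.429 CPM and male ones 1.21, 0.480 and 0.888. No E16.5 library reached any E14.5 library. Foxd1 fell by 2.49 in females (SE 0.296, adjusted p 9.18e-06) and by 2.21 in males (SE 0.261, adjusted p 1.3e-05) on the log2 scale, which is 5.63-fold and 4.63-fold. The sexes overlapped at E16.5, and the difference was -0.85 (SE 0.314, adjusted p 0.0559), which passed without E16.5 male replicate 2 (adjusted p 0.0101) and with replicate blocks (0.0381). In the uterus Foxd1 had 4, 0 and 1 counts in the Gli1+ libraries and 0 in each Amhr2+ library, at or near the floor of 3. The 8 kidney markers summed to at most 2.90 CPM in any library, and Six2, which marks nephron progenitors, had group means of at most 0.0795 CPM; the part of such cells in the Foxd1 levels was not tested. Foxd2, its relative, was lower in E16.5 females than males (3.18 ± 0.785 against 10.4 ± 3.82 CPM, log2 fold change -1.71, adjusted p 0.000359) and in uterine Amhr2+ than Gli1+ cells (0.0688 ± 0.0381 against 1.22 ± 0.0264 CPM, -4.12, adjusted p 0.000228).

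The hedgehog-linked members Foxf1, Foxf2 and Foxl1 were close to the limit of detection in Gli1+ mesenchyme of the fetal mesonephros. Foxf1 had 4, 12 and 8 counts in E14.5 females, 9, 33 and 28 in E14.5 males, 9, 3 and 6 in E16.5 females and 8, 16 and 21 in E16.5 males. In CPM the sexes overlapped at both ages, and no comparison was called: the log2 differences were -0.94 (SE 0.461, adjusted p 0.287) and -1.09 (SE 0.508, adjusted p 0.13) between sexes, and -0.96 (adjusted p 0.186) and -0.82 (adjusted p 0.175) with age in females and males. Foxl1 measured 0.601, 0.597 and 0.543 CPM in the E14.5 female libraries and 0.715, 0.540 and 0.397 in the E14.5 male ones. Values at E16.5 were 0.122, 0.320 and 0.126 CPM for females and 0.581, 0.374 and 0.404 for males. Only the E16.5 females lay apart, below all other fetal libraries. The log2 fold change between sexes at E16.5 was -1.23 (SE 0.394, adjusted p 0.0294), a call lost without E16.5 female replicate 1 or 3 (0.119 and 0.104) or male replicate 1 (0.0802), and when just the 6 libraries compared were fitted (0.0752), while without E16.5 female replicate 2 the value was -1.85. In females Foxl1 fell with age by 1.60 (SE 0.405, adjusted p 0.00579), or by 2.19 without that library, and in males the value was -0.23 (SE 0.342, adjusted p 0.684). The interaction was -1.37 (SE 0.532, adjusted p 0.128), and -1.98 (adjusted p 0.0363) without E16.5 female replicate 2.

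Foxf2 was below the filter in the fetal table. It had 1, 2 and 1 counts in E14.5 females, 2, 8 and 13 in E14.5 males, 1, 1 and 0 in E16.5 females and 5, 8 and 21 in E16.5 males. Male libraries were above female ones in CPM at both ages. At E14.5 the closest libraries, female replicate 2 and male replicate 1, had 2 counts each (0.0796 and 0.0841 CPM). Both lay below the floor of 3 counts and were parted only by library size. Over the summed counts the ratio of males to females was 14.6 at E16.5 (34 against 2 counts, exact 95% interval 3.75 to 126) and 3.90 at E14.5 (23 against 4, 1.33 to 15.5), where the intervals cover counting error only. In a fit with no low-count filter the log2 fold change of females against males was -3.58 at E16.5 (adjusted p 0.00104) and -1.84 at E14.5 (adjusted p 0.269). In the uterus Foxf2 had at most 3 counts in any library.

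In the uterus the genes of the chromosome 8 cluster were found in Gli1+ libraries and almost absent from Amhr2+ libraries. Foxc2 measured 0.0259, 0.162 and 0 CPM in Amhr2+ and 1.31, 1.45 and 0.603 in Gli1+ libraries. The log2 difference was -4.01 (SE 0.698, adjusted p 0.00484). The call held without any single library (adjusted p 0.00291 to 0.0283), but the size of the difference ranged from -5.93 without Amhr2+ replicate 2 to -3.54 without Amhr2+ replicate 3. Foxf1 had 1, 2 and 0 counts in Amhr2+ and 63, 52 and 9 in Gli1+ libraries, a ratio of CPM sums of 43.9 (exact 95% interval 14.7 to 216). Foxl1 had 1 count in each Amhr2+ library and 23, 18 and 1 in Gli1+ libraries, a ratio of 14.9 (4.75 to 75.0). Both intervals cover counting error only, not the spread between libraries. Fendrr, transcribed away from Foxf1, had 0 counts in Amhr2+ and 13, 22 and 1 in Gli1+ libraries. With the floor of 3 counts put in place of the Amhr2+ sum of 0, the ratio was 12.7. That value has no interval and is not a lower limit. Foxf1 and Foxc2 did not overlap between the groups. Foxl1 did, because Gli1+ replicate 3 was as low as the Amhr2+ libraries.

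All 4 genes were lowest, among the Gli1+ libraries, in replicate 3. In that library the blood and immune markers summed to 83.6 CPM against 21.6 and 24.1 in the other Gli1+ libraries, whose part in the result was not tested. Foxf1 and Foxl1 were below the low-count filter. In the fit without it their log2 fold changes were -5.27 (adjusted p 0.0138) and -3.71 (adjusted p 0.0215), that of Foxd1 was -3.87 (adjusted p 0.19) and that of Foxf2 was 0.24 (adjusted p 0.915). Mthfsd, which lies between Foxf1 and Foxc2, measured 28.6 to 30.5 CPM in Amhr2+ and 30.7 to 39.8 CPM in Gli1+ libraries and was not called (the difference between it and its neighbours was not tested). Foxc1, on another chromosome, measured 2.36, 2.26 and 2.202 CPM in Amhr2+ and 3.60, 3.34 and 2.47 in Gli1+ libraries. Its groups did not overlap, and the difference was -0.46 (SE 0.194, adjusted p 0.118).

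**Figure D5:**
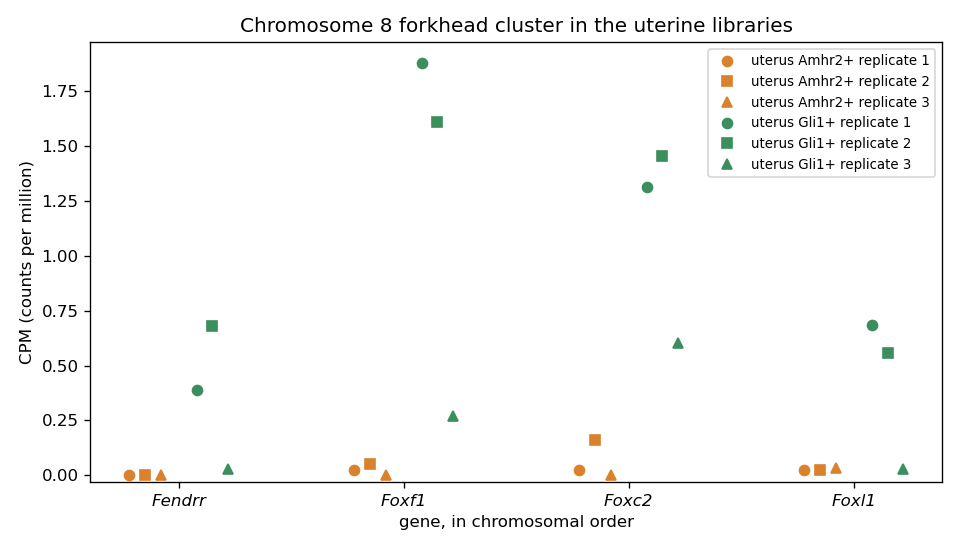
CPM of Fendrr, Foxf1, Foxc2 and Foxl1, in chromosomal order, in the 6 uterine libraries; orange points are Amhr2+ and green points Gli1+ libraries, with a symbol for each replicate. The Amhr2+ libraries lie between 0 and 0.162 CPM, and Gli1+ replicate 3 (triangle) is the lowest Gli1+ library for each gene.

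Hedgehog response genes were compared in the same libraries, since FOXF and FOXL1 genes respond to hedgehog in other organs. Of 12 such genes, all tested, 2 were higher and 6 lower in E16.5 females than males (27.3% of all genes called), and the 5 called at E14.5 (6.28%) were lower in females. In females 3 rose and 6 fell with age (39.6%), and in males 3 rose and 2 fell (23.3%). The 7 called in the uterus (23.9%) were lower in Amhr2+ cells. The median log2 difference of the 12 was -0.22 at E16.5 against 0.0063 for all genes, and -0.63 in the uterus against -0.0017. Ptch1, the hedgehog receptor, measured 76.6 ± 10.7 CPM in females at E16.5 and 671 ± 219 in males. In the uterus Ptch1 was not among the genes called (31.9 ± 2.05 against 36.2 ± 3.06 CPM), and Boc, a co-receptor, measured 178 ± 7.66 CPM in Gli1+ cells and 74.7 ± 6.97 in Amhr2+ cells (-1.25 on the log2 scale, adjusted p 3.06e-05).

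Beyond the members, 34 other forkhead genes were in the tables, 15 of them tested in the fetal table and 14 in the uterine table. At E16.5, 2 were higher in females and 4 lower, against 27.3% of all genes called, and at E14.5 1 was higher and 1 lower, against 6.28%. In females 2 rose and 6 fell with age (39.6%), and in males 1 rose and 1 fell (23.3%). The 3 called in the uterus (23.9%) were lower in Amhr2+ cells. Foxo3, a relative of Foxo1, rose with age in both sexes (log2 0.42 in females and 0.41 in males, adjusted p 0.000125 and 0.000229), whereas Foxo1 fell in females. Foxs1, the remaining call in the uterus beside Foxd2 and Foxp4, measured 13.5 ± 2.65 CPM in Gli1+ cells and 4.86 ± 1.13 in Amhr2+ cells (-1.47 on the log2 scale, adjusted p 0.00166).

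The genes with the most similar profile were named by the root mean square (RMS) difference of centred log2 CPM, a measure over libraries that share depth, scaling and groups, and given as a description. Over the 12 fetal libraries, Foxl2 was nearest to Ckb (RMS 0.128, against a median of 0.59 over all tested genes), Smim1 and Cd9. Foxo1 was nearest to Cald1 (0.0724 against 0.34), Rnf157 and Etv6. Foxp1 was nearest to Mad2l1 (0.0673 against 0.367), Gltscr2 and Rpl7a, and Foxp2 to Kcnb2 (0.14 against 0.587), Unc5b and Ica1. Foxc1 was nearest to Bmp6 (0.187), Nuak2 and Bcam, and Foxc2 to RP23-305G22.3 (0.209), Tbx2 and Btn2a2. Foxd1 was nearest to Kcnj2 (0.270), Vmn2r87 and Lhb, and Foxl1 to Sctr (0.210), Frmd4b and Apol8. Over the 6 uterine libraries, Foxl2 was nearest to Kera (0.0929), Erich3 and AC121564.2, and Foxp1 to App (0.0192), Rtfdc1 and Coro1b. Foxc2 was nearest to Ddx4 (0.411), Adh1 and Thbs2. Ddx4 marks germ cells, whose 4 markers summed to 0.474 to 0.943 CPM in Amhr2+ and 5.27 to 6.53 CPM in Gli1+ libraries. The germ cell markers Dppa3 and Pou5f1 had 0 counts in all Gli1+ libraries, and 1 of the 4 exceeded 1 CPM in each of them. The sum includes Ddx4 itself, so it is not a measure separate from Ddx4. The part of germ cells in the Foxc2 result was not tested.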

How the data were processed

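Counts were the authors' deposited values: whole reads per gene, 1 column per library, with mm10 gene coordinates per the file headers. The submitters' processing notes name STAR 2.5, featureCounts and Subread 1.5.0-p1, and for peaks Bowtie 1.2, SAMtools 1.3.1, Picard, bedtools 2.24.0 and MACS2 2.1.1. Their roles, settings, the annotation and the use of strand in counting are not given in the sources used here. The authors deposited the ATAC-seq peaks as a single list of positions.

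Libraries were grouped by their titles. edgeR 4.0.16 in R 4.3.3 (limma 3.58.1) tested counts by its quasi-likelihood test with filterByExpr by group, TMM scaling, robust estimation and Benjamini-Hochberg adjustment over all tested genes (17858 fetal, 16195 uterine) at 0.05. A single model of 4 group means over 12 libraries gave the fetal comparisons, and the 6 uterine libraries were fitted alone. SE is the size of the log2 fold change over the root of F. The code was tested on simulated counts. CPM per kb used the union exon length of GENCODE vM21, and RefSeq gave promoters. Alternatives were library size alone, RLE size factors, no low-count filter, DESeq2 1.42.0, only the 6 libraries compared, replicate blocks, and leaving out each library.

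The members and the gene lists were chosen with earlier results of these data known, which includes all companion and marker lists. All members are named; from the companion lists up to 3 genes per direction and comparison could be named, by size of log2 fold change among called genes with at least 10 CPM in the higher group (1 CPM for forkhead genes), and those left unnamed are counted. Of those outside this rule, Ptch1 in the uterus, Foxl2os, Mthfsd, Fendrr and the marker genes were chosen after their values were seen. Similar genes are the 3 with the smallest RMS difference.

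Same-numbered libraries of the sexes at E16.5 deviated together from their group means (correlations 0.284, 0.115 and 0.396, all above the limit of 0.1). Female replicate 2 and male replicate 1, which differ in number, had 0.108. The reported tests used no pairs, and the numbers entered only the alternative fit with replicate blocks. No label ties them to a litter. Replicates of each group differed by more than sampling noise (chi-square per gene 3.61 to 89.1), so none was counted as a duplicate.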

Additional observations from a re-analysis of the deposited data

Results flagged for a closer look

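Only the members, the other forkhead genes and the FOXO target genes were searched here. In 6 of them, the difference between females and males itself differed between E14.5 and E16.5. The test was the sex by age term of edgeR's model over 12 libraries, which called 10% of all tested genes. Outside this search it also called 8 of 12 hedgehog response genes and 3 of 10 tested genes linked to FOXL2 in the ovary. Foxo1 had an interaction of -0.47 on the log2 scale (SE 0.106, adjusted p 0.00805), with levels of 52.3 ± 2.73 and 54.1 ± 1.35 CPM (SD, n = 3) in females and males at E14.5 and 38.6 ± 3.34 and 55.4 ± 3.35 CPM at E16.5. Among other forkhead genes, Foxp4 had -0.49 (adjusted p 0.019) and Foxm1, a gene of proliferating cells, had -0.38 (adjusted p 0.047). Among FOXO target genes, Fbxo32 had -0.77 (adjusted p 0.000334), Sesn3 had 0.65 (adjusted p 0.00373) and Bcl2l11 had 0.51 (adjusted p 0.0148).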

How the results depend on the processing

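The count of members called between sexes went from 1 to 0 at E14.5 when just the 6 libraries compared were fitted, and was 0 to 1 with each library left out. At E16.5 it was 4 to 6 with a library left out (6 with all), and 8 under DESeq2 and without the low-count filter. The counts of 8 are given without the number of all genes called in those 2 fits, so they are not set against a background. For the interaction it was 2 with the replicate block, and 1 to 2 with a library left out. In the uterus (3 with all) it was 2 to 5, with 5 reached without Amhr2+ replicate 3. Over all genes, leaving out a library gave 553 to 1678 calls between sexes at E14.5 (1121 with all) and 3618 to 5745 at E16.5 (4883). It gave 1335 to 2687 for the interaction (1790) and 1949 to 3521 in the uterus (3866). Library size as the only scaling moved the share of called genes that were higher from 56.1% to 41.2% with age in males and from 42.5% to 63.5% in the uterus. No scaling moved the median of all genes by over 0.1. Signs turned only in differences that were not called with all libraries, of which Foxp2 in the uterus, at 0.29, was the largest. Foxc1 with age in males became 0.0083 without the low-count filter, and -0.15 to 0.16 with a library left out. With library size alone, Foxo1 became -0.019 with age in males and 0.023 in the uterus. With a library left out, Foxo1 in the uterus was -0.13 to 0.019 and Foxp2 -0.027 to 0.58, and Foxl1 and Foxc2 between sexes at E14.5 were -0.083 to 0.32 and -0.25 to 0.17. The interactions of Foxf1 and Foxp2 were -0.55 to 0.33 and -0.21 to 0.045. RLE size factors changed no call of a member in 51 results. DESeq2 added 3, among them Foxc2 (adjusted p 0.0454) and Foxd1 (0.0368) between sexes at E16.5.

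With the replicate block, 8 members were called between sexes at E16.5, and 5901 genes in all. Beside Foxc2, Foxd1 and the interaction of Foxc1, the blocked fit changed 1 call of a member, Foxc1 with age in females (-0.71, adjusted p 0.0619). Same-numbered libraries had correlations of 0.0725, 0.0504 and 0.0508 at E14.5 and of 0.00176, 0.221 and 0.243 in the uterus. Not all of them passed the limit of 0.1, so no pairing was assumed there or between ages. Whether those libraries were paired is not known. At the depth of these libraries Foxf2, and in the uterus also Foxf1, Foxl1 and Foxd1, fell below the low-count filter. In uterine Gli1+ libraries Foxf1 still had 63, 52 and 9 counts and Foxl1 had 23, 18 and 1. Differences in these genes are limited by counting and by the spread between libraries.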
